A study of Mus musculus with 8 samples.

Results

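Lctl, Kl, Klb, Fgf21, Fgfr1, Fgfr2, Fgfr3 and Fgfr4 form the signalling unit of the endocrine fibroblast growth factors (FGFs) and its close relatives, and all 8 were found among the 21759 genes of the table. They were chosen by symbol, with the row of highest mean log2 intensity over all 8 arrays selected for each. Each symbol had only 1 row, so that mean excluded nothing. The list of symbols was drawn up with the HFD minus NCD differences of these data already known. Their differences and adjusted p-values are therefore a description of where they lie among all genes, and support nothing independently.

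The 8 arrays hold brown fat, the thermogenic adipose tissue, from male C57BL/6 mice, 4 labelled HFD (high-fat diet) and 4 labelled NCD. The labels name no genotype, drug or surgery, do not spell out NCD, and do not give the age of the mice or the length of feeding. They do not say that replicates came from separate animals, so p-values cover the spread among these arrays, which may be technical. The array carries probes along the whole transcript and gives 1 log2 intensity per transcript cluster, the set of probes assigned to a gene, so splice forms such as the b and c forms of the receptors were not resolved.

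Most FGFs act locally, held near their source by heparan sulfate. The endocrine FGFs bind heparan sulfate weakly, circulate as hormones, and need a Klotho protein beside an FGF receptor on the target cell. Beta-Klotho, from Klb, serves FGF21 and mouse FGF15, and in fat it works mainly with the receptor Fgfr1. Klotho, from Kl, serves FGF23 and acts above all in kidney. Lctl, also called gamma-Klotho or KLPH, is the shortest and least studied family member, known from eye, kidney and brown fat.

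Checked against the tissue label, all 14 brown and general adipocyte markers averaged above the 95th percentile of 1119 olfactory receptor genes, a level of 6.46 that stands in here for unexpressed genes. A set of 16 skeletal muscle markers averaged 9.82 on HFD 3 and 9.17 on NCD 1, against 5.54 to 5.96 on the other 6 arrays. Values were most widely spread on NCD 3 and NCD 2, with standard deviations over clusters of 1.82 and 1.79. HFD 4 came next at 1.78, and the narrowest array had 1.69. Fits were repeated without NCD 1 and HFD 3, and without NCD 2 and NCD 3. Where leaving out either pair ends a call, turns a sign or moves a named pathway gene's difference by over 1.5 times, that value is given.

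Of the 8 genes, 1 passed a limma adjusted p of 0.05 over all genes, and it was lower in HFD: Lctl. Among all genes tested, 0.142% passed in either direction and 0.133% were lower. Groups did not overlap for 2 of the 8, Lctl and Klb, against 3.83% of all genes in either direction and 2.5% lower in HFD. An unadjusted p under 0.05 was found for the same 2, against 7.24% of all genes. Because the genes were listed with this comparison known, nothing is read from these shares. Means were lower in HFD for 4 of the 8, and the median difference (HFD minus NCD, log2) was -0.0025, against -0.01 over all genes.

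**Figure D1:**
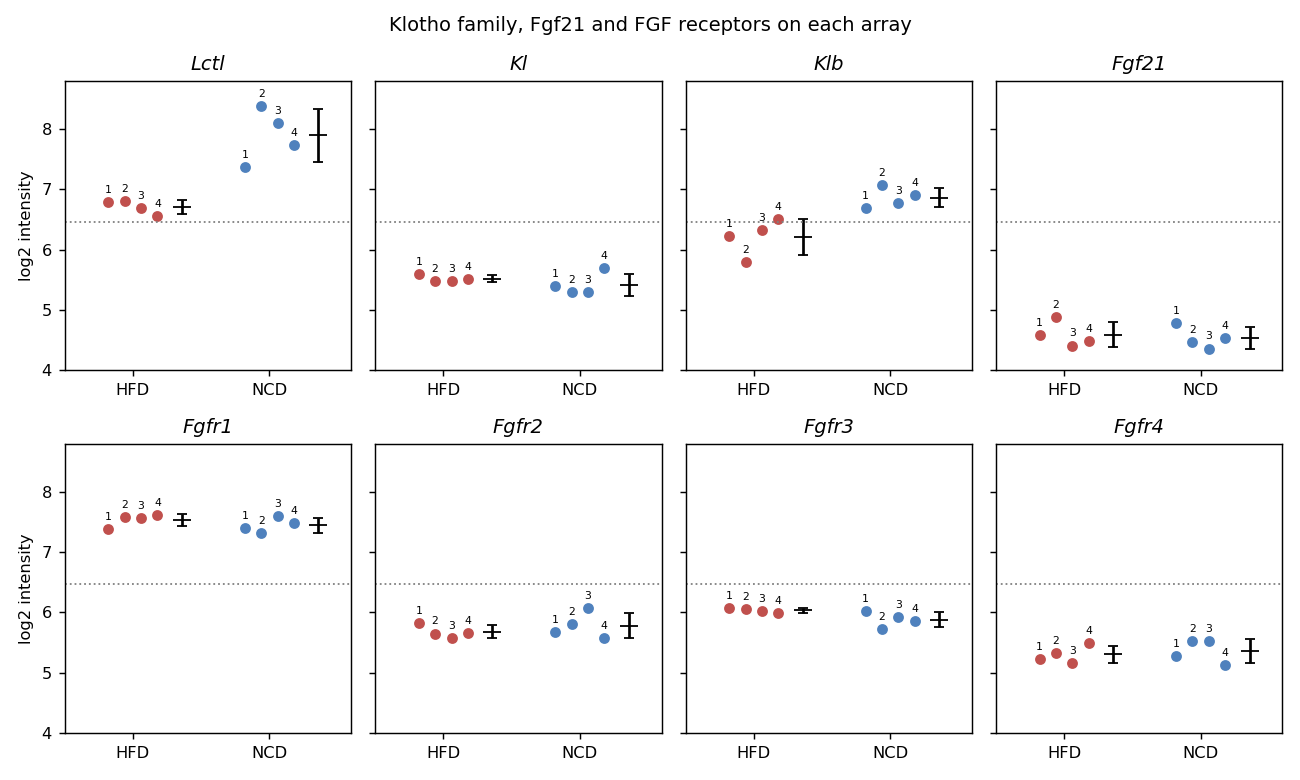
Log2 intensity of each gene on each array, HFD left and NCD right, numbered by replicate, with the group mean and standard deviation (black, n = 4) beside the points. The dotted line marks 6.46, the 95th percentile of olfactory receptor genes. Lctl and Klb are the 2 genes whose HFD points all lie under their NCD points.

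Lctl encodes a single-pass membrane protein related to family 1 glycosidases. Its log2 intensity was 6.79, 6.81, 6.70 and 6.56 on HFD 1 to 4, and 7.38, 8.39, 8.10 and 7.73 on NCD 1 to 4. Every HFD array lay below every NCD array, with a gap of 0.57 between the nearest arrays. Lctl averaged 6.715 ± 0.11 in HFD and 7.90 ± 0.44 in NCD (SD, n = 4 each). The difference was -1.185 ± 0.17 (SE, 95% interval -1.56 to -0.81), and Lctl fell 2.27-fold in HFD (limma adjusted p = 0.00743). It was the 10th most negative difference of all genes. In whole tissue, fewer cells of a type and less RNA per cell cannot be told apart.

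The Lctl values were spread more widely among the NCD arrays than among the HFD arrays, with an SD ratio of 3.86. A ratio at least this large was found for 3.83% of all genes, and a ratio above 1 for 62.2%. NCD 2 and NCD 3, the highest for Lctl, were also the NCD arrays of widest overall spread. Without both, the difference was -0.84 (limma adjusted p = 0.0796) and the call was lost, although the remaining NCD arrays, at 7.38 and 7.73, lay above all 4 HFD arrays. Without NCD 1 and HFD 3, the arrays of high muscle markers, it was -1.35 (limma adjusted p = 0.000956). With all arrays scaled to equal median and spread, the Lctl difference was -1.14 (limma adjusted p = 0.0116). Beyond that fit, the part of array spread in the result was not tested.

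In HFD the Lctl signal lay close to the level of olfactory receptors. The 95th percentile of those genes was 6.59, 6.62, 6.38 and 6.54 on HFD 1 to 4, so Lctl exceeded it on all 4 arrays, on HFD 4 by the smallest margin. On NCD arrays it was 6.53, 6.43, 6.26 and 6.68, well under Lctl throughout. The size of the fold is uncertain to that extent.

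Klb encodes beta-Klotho, the obligate co-receptor for FGF21. Its log2 intensity was 6.23, 5.80, 6.32 and 6.51 on HFD 1 to 4, and 6.70, 7.07, 6.78 and 6.91 on NCD 1 to 4. The groups did not overlap, with a gap of 0.19, and HFD 2 was the lowest array. Klb averaged 6.215 ± 0.30 in HFD and 6.865 ± 0.16 in NCD (SD, n = 4 each). The difference of -0.65 ± 0.15 (SE, 95% interval -0.96 to -0.34), 1.57-fold lower in HFD, did not pass over all genes (limma adjusted p = 0.141).

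Klb exceeded its array's olfactory receptor level on 4 of 4 NCD arrays and on 0 of 4 HFD arrays. With the HFD arrays set to that level, the HFD mean was 6.53 and Klb was 1.26-fold lower in HFD. That fold comes from the group means alone and has no interval. The difference stayed between -0.75 and -0.51 when each array was left out in turn, and it passed the threshold in 0 of these 8 fits (limma adjusted p from 0.0938 to 0.456).

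**Figure D2:**
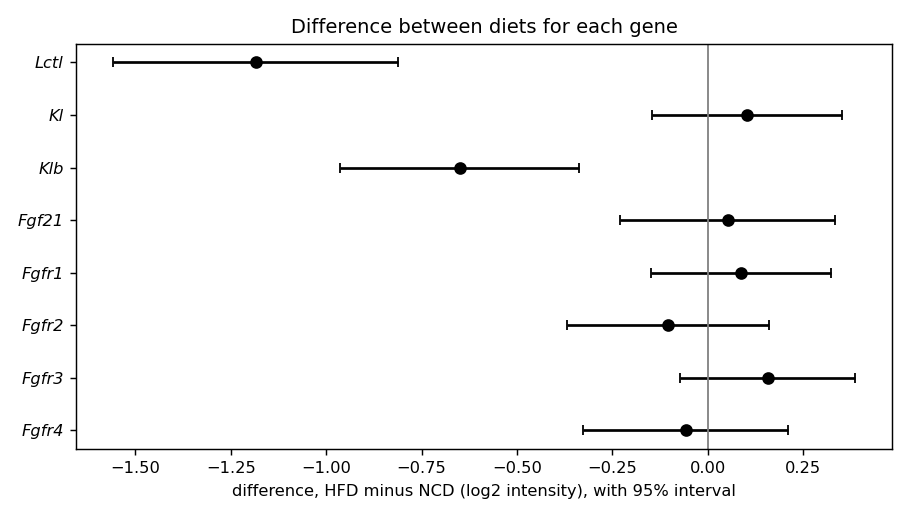
Difference between HFD and NCD (log2 intensity) for each gene, as points with 95% intervals from limma (n = 4 arrays in each group). The intervals of Lctl (-1.56 to -0.81) and Klb (-0.96 to -0.34) lie below 0, and those of the other 6 genes span 0.

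As the Klotho genes whose groups were separated, Lctl and Klb are shown by the promoter sequence that RefSeq gives for each on GRCm38.p6, 250 bases before to 50 after the annotated start, 5′ to 3′ on the gene's strand. Lctl is at chr9:64116897-64117196 (plus strand) and Klb at chr5:65348161-65348460 (plus strand). Capitals mark matches to the motifs searched below.
Lctl: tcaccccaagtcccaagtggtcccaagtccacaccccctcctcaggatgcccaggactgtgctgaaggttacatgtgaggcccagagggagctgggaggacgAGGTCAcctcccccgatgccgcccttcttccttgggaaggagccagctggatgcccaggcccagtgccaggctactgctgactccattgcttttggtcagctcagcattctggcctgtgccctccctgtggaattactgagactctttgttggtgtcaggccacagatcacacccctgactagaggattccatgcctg
Klb: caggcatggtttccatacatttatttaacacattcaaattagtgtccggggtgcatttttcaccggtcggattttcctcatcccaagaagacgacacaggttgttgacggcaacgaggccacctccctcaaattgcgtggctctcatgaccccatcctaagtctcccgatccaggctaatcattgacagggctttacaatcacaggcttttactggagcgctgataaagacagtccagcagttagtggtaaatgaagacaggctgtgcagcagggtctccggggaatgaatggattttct

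Both strands were searched for AGGTCA (nuclear receptor half-site), CACGTG (E-box core), TCACNCCAC (sterol response element) and TATAAA, a core promoter element. The Lctl window held 1 match, AGGTCA on the gene's strand, whose first base lies at -148 from the start, a motif present in 16.3% of the 32851 promoters in the table. The Klb window held none of the 4. The Fgf21 promoter held CACGTG at -50, as 7.15% of promoters do, and TATAAA at -28, as 13.6% do. The Fgfr2 window held CACGTG at base 29 after the start. RefSeq promoters matched 7 of the 8 genes, Fgfr1 being the exception. GC content was 59.3% for Lctl and 48.3% for Klb, against a median of 52.7% over all promoters. These matches are letters in a window, and no binding was measured.

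Kl, the third Klotho gene, was dim in both groups. It read 5.60, 5.48, 5.48 and 5.52 on HFD arrays and 5.39, 5.29, 5.30 and 5.69 on NCD arrays, under the olfactory receptor level on all 8. NCD 4 was the highest array and the groups overlapped. The difference was 0.10 (95% interval -0.15 to 0.35, limma adjusted p = 0.898).

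Fgf21, the hormone that beta-Klotho receives, is made mainly in liver and can be induced in brown fat by cold. Here it read 4.59, 4.88, 4.41 and 4.48 on HFD arrays and 4.79, 4.47, 4.36 and 4.53 on NCD arrays. All 8 values lay far under the olfactory receptor level and close to the 4.50 median of those genes, and the groups overlapped. Fgf21 was highest on HFD 2, where Klb was lowest. The difference was 0.05 (95% interval -0.23 to 0.33, limma adjusted p = 0.961), and it changed sign without HFD 2 (-0.044), without NCD 3 (-0.0067) and without NCD 2 and NCD 3 (-0.07). Without NCD 1 and HFD 3 it was 0.20.

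Fgfr1 encodes the main partner of beta-Klotho in adipocytes and was the only one of the 4 receptor genes above the olfactory receptor level, on 8 of 8 arrays. It read 7.39, 7.58, 7.56 and 7.61 on HFD 1 to 4, against 7.40, 7.31, 7.60 and 7.48 on NCD 1 to 4. These ranges overlapped almost wholly. Fgfr1 averaged 7.535 ± 0.10 in HFD and 7.45 ± 0.12 in NCD (SD, n = 4 each). The difference of 0.0875 had a 95% interval from -0.15 to 0.32, or 0.902-fold to 1.25-fold of the NCD level (limma adjusted p = 0.909).

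Fgfr2, Fgfr3 and Fgfr4 were each under the olfactory receptor level on all 8 arrays. Fgfr2, the receptor for FGF7 and FGF10 in its epithelial form, ranged from 5.58 to 5.83 in HFD and from 5.58 to 6.07 in NCD, with a difference of -0.10 (95% interval -0.37 to 0.16). Fgfr3, known for its part in cartilage growth, ranged from 5.99 to 6.08 in HFD and from 5.72 to 6.03 in NCD, and its groups overlapped only by NCD 1. The Fgfr3 difference was 0.16 (95% interval -0.07 to 0.39, limma adjusted p = 0.819), and 0.0975 without NCD 2 and NCD 3. Fgfr4, the liver partner of beta-Klotho in bile acid control, ranged from 5.16 to 5.50 in HFD and from 5.12 to 5.53 in NCD, with a difference of -0.06 (95% interval -0.33 to 0.21). On the arrays of high muscle markers Fgfr4 read 5.16 (HFD 3) and 5.27 (NCD 1), within the range of the others. Without NCD 2 and NCD 3 the signs turned for Fgfr2 (0.05), Fgfr4 (0.11) and Kl (-0.02), with no call in any direction.

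In the file, for which the sources used here name no build, the Lctl cluster spans chromosome 9 from 63964954 to 63985925 and the Klb cluster chromosome 5 from 65739646 to 65775246, both on the plus strand. Kl (from 151755274 to 151796392) and Fgfr3 (from 34064373 to 34079716) also lie on chromosome 5, and Fgf21 (from 52869256 to 52870860) lies on chromosome 7 with Fgfr2. Fgfr1 lies on chromosome 8 from 26629333 to 26685134 and Fgfr4 on chromosome 13 from 55254001 to 55270120. Chromosome and transcript accession matched RefSeq for all 8 genes, and exon positions were not used. The Fgfr2 cluster spans 767247 bases in the file, from 136643076 to 137410322, against 104358 bases for the RefSeq gene, and which of its probes lie in the gene was not examined.

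After removal of the group means, the 28 pairs of the 8 genes had correlations of deviations from -0.75 (Klb with Fgf21) to 0.61 (Fgfr2 with Fgfr4) over 8 arrays. Lctl and Klb had one of 0.16. Most of these genes are dim, and arrays share their overall spread, so the values are given only as a description.

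The genes most like Lctl over the 8 arrays, among 7628 above the olfactory receptor level, were Stxbp2, Tecr and Lama4. Stxbp2, a syntaxin-binding protein of vesicle release, had a Pearson correlation of 0.98 with Lctl, and 0.90 after removal of group means. Tecr, the reductase that completes each round of very long-chain fatty acid elongation, had 0.98 and 0.90. Lama4, a laminin chain of vessel and adipocyte basement membranes, had 0.98 and 0.93. All 3 were lower on every HFD array than on any NCD array, with differences of -0.44, -0.35 and -0.46, none past the threshold (limma adjusted p = 0.209, 0.412 and 0.144). For Klb the most alike were Rbm47, an RNA-binding protein (0.97, and 0.92 after removal of group means), Faf1, a ubiquitin-binding factor (0.96 and 0.89), and Zmat2, a zinc finger protein (0.96 and 0.87). Klb was included by its mean of 6.54 over the 8 arrays, but exceeded the olfactory receptor level on 0 of 4 HFD arrays. Its correlations therefore rest in part on values under that level. The correlations before removal of group means hold the step between diets, and all of them share the spread of the arrays. The genes were picked by the former, so a step like that of Lctl or Klb comes with the choice. High values after removal of group means come partly with the choice too, and are no separate check.

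The rest of the pathway was read from 5 lists drawn up by role, covering 83 genes, of which 1 passed the threshold (0.142% of all genes did). Their median difference was -0.005 and 42 had lower means in HFD. Among the 21 other FGF ligand genes, 1 was lower, 0 were higher and 20 did not pass, with a median difference of 0.05.

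The ligand-family gene that passed was Fgf14. It encodes an FGF homologous factor, which stays inside the cell, binds voltage-gated sodium channels and does not signal through Klotho proteins. Fgf14 read 6.47, 6.54, 6.26 and 6.73 on HFD 1 to 4, against 7.18, 7.42, 7.78 and 7.44 on NCD 1 to 4. No HFD array reached an NCD array, and 1 of 4 HFD arrays against 4 of 4 NCD arrays exceeded the olfactory receptor level. Fgf14 fell by 0.955 ± 0.14 on the log2 scale (SE, limma adjusted p = 0.00743), or 1.94-fold. With the HFD arrays under the olfactory receptor level set to it, the HFD mean was 6.58 and Fgf14 was 1.83-fold lower. Without NCD 2 and NCD 3 the difference was -0.81 and the call was lost (limma adjusted p = 0.125).

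Among secreted ligands, Fgf7, made by stromal cells, came nearest. It read 5.99, 5.92, 7.11 and 6.42 on HFD arrays and 5.75, 5.50, 5.93 and 6.07 on NCD arrays, a difference of 0.55 ± 0.21 (SE, limma adjusted p = 0.592). The groups overlapped and HFD 3, an array of high muscle markers, was the highest. Fgf7 exceeded the olfactory receptor level on HFD 3 only. Without HFD 3 the Fgf7 difference was 0.2975 (limma adjusted p = 0.812), and without NCD 1 and HFD 3 it was 0.28.

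**Figure D3:**
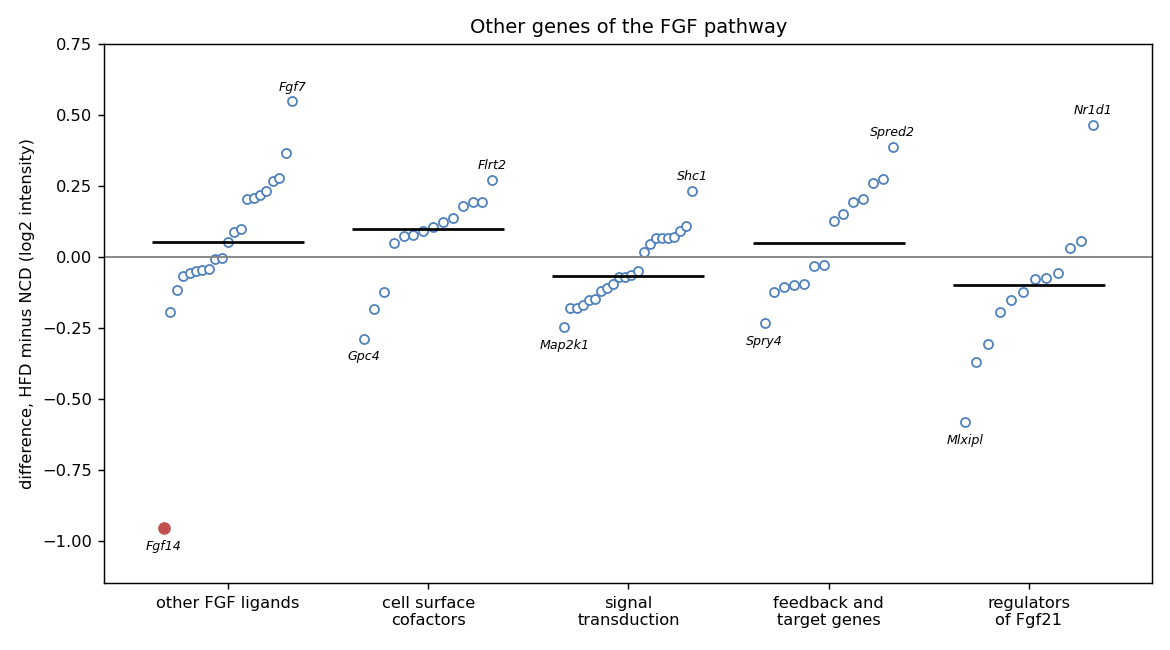
Difference between HFD and NCD (log2 intensity) of each gene in 5 lists of the FGF pathway, with the list median as a line and the lowest and highest gene named. The filled point is Fgf14 at -0.955, the gene past a limma adjusted p of 0.05; open points did not pass.

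Cell surface cofactors, the proteoglycans and binding proteins that present FGFs, had 0 of 14 measured genes past the threshold and a median of 0.10. The glypican gene Gpc4 was 6.76, 6.74, 6.76 and 6.80 on HFD arrays and 6.95, 7.32, 7.08 and 6.86 on NCD arrays, separated but small in difference (-0.29 ± 0.12 SE, limma adjusted p = 0.625). Without NCD 2 and NCD 3 the Gpc4 difference was -0.14 (limma adjusted p = 0.885). Fgfbp3, a secreted FGF carrier, differed by 0.19 (limma adjusted p = 0.771) at levels under the olfactory receptor level.

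The 22 genes of signal transduction below the receptors ranged in difference from -0.25 to 0.23, with 0 past the threshold and a median of -0.07. The kinase gene Map2k1 had the largest shift, -0.25 (limma adjusted p = 0.757), which was -0.16 without NCD 3 and likewise without NCD 2 and NCD 3. Grb2, the adaptor that links receptors to Ras, was 6.91, 6.89, 6.88 and 6.71 on HFD arrays and 7.00, 7.02, 7.08 and 7.01 on NCD arrays, a difference of -0.18 (limma adjusted p = 0.771).

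Feedback inhibitors and target genes, whose transcripts rise when FGF receptors signal, had 0 of 14 past the threshold, 7 with lower means and a median of 0.05. Spred2, an inhibitor of the Ras pathway, read 8.77, 9.20, 8.92 and 9.05 on HFD arrays and 8.62, 8.89, 8.55 and 8.33 on NCD arrays (difference 0.39 ± 0.14 SE, limma adjusted p = 0.521). These are values of the brighter of its 2 clusters, and with the mean of both the Spred2 difference was 0.2875 (limma adjusted p = 0.679). Its relative Spred3 differed by 0.26 (limma adjusted p = 0.699), and by 0.1475 without HFD 1. The MAP kinase phosphatase Dusp6, a widely used readout of FGF signalling, differed by 0.275 (limma adjusted p = 0.749), and the transcription factors Etv4 and Etv5 by 0.205 and -0.105. The Sprouty genes of the list, Spry1, Spry2, Spry3 and Spry4, had lower means in HFD, with differences of -0.095, -0.0325, -0.0275 and -0.2325. Dusp6, Etv4, Etv5 and the Sprouty genes were named after their values were seen. Spred3, Dusp6, Etv4, Etv5 and the Sprouty genes averaged under the olfactory receptor level, as did all but 3 of the 14 genes.

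Regulators of Fgf21 transcription had 0 of 12 genes past the threshold and a median of -0.10. Mlxipl, the glucose-sensing factor ChREBP, read 8.61, 8.63, 8.39 and 8.67 on HFD 1 to 4 and 8.96, 9.40, 9.07 and 9.20 on NCD 1 to 4. Its groups did not overlap, and the difference was -0.58 ± 0.12 (SE, limma adjusted p = 0.0935). The highest difference in the list had the opposite sign: Nr1d1, a repressor of the circadian clock, averaged 9.94 in HFD and 9.475 in NCD, a difference of 0.465 ± 0.17 (SE, limma adjusted p = 0.558). Nr1d1 was named after its value was seen.

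The authors' deposited table gave a signed fold of -2.28 and a p of 0.01 for Lctl, and -1.57 and 0.01 for Klb. For the other 6 genes the authors' deposited table gave signed folds between -1.07 (Fgfr2) and 1.12 (Fgfr3), with p from 0.09 for Fgfr3 to 0.72 for Fgf21.

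Across 18 other ways of processing, Lctl had a negative difference in all 18 and passed in 16. It was lost without NCD 2 and NCD 3 and in the methods' t-test (difference -1.185, adjusted p = 0.408). Klb had a negative difference in all 18, and passed in 0; its adjusted p was lowest, at 0.05905, with a variance trend and robust prior.

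**Figure D4:**
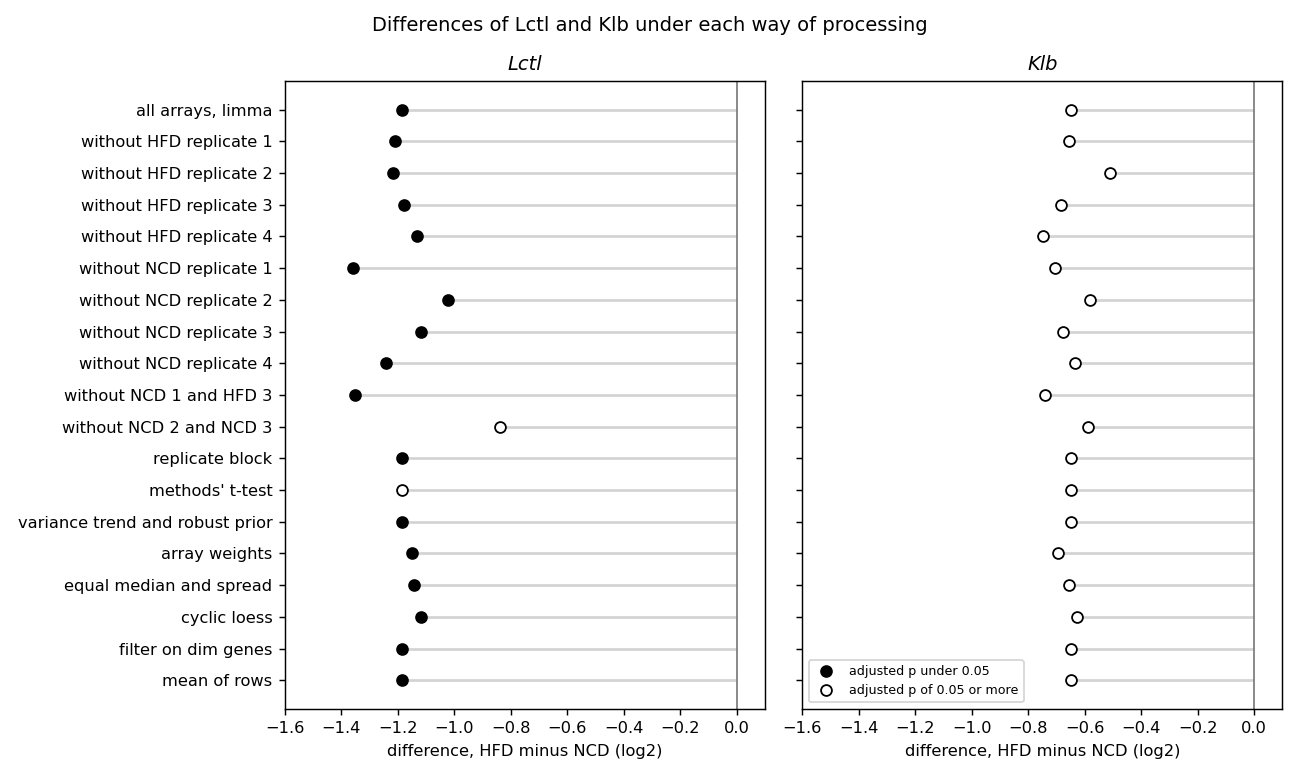
Difference between HFD and NCD (log2 intensity) of Lctl (left) and Klb (right) with all arrays in limma (top) and under 18 alternatives. Filled points passed an adjusted p of 0.05; Lctl ranges from -1.36 to -0.84 and Klb from -0.75 to -0.51.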

How the data were processed

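RNA from brown adipose tissue was measured on 8 Affymetrix Mouse Gene 1.0 ST arrays, 4 HFD and 4 NCD. The authors took logs and quantile normalized in Affymetrix Power Tools, per the series design text and the submitters' processing notes. How probes were summarized and corrected for background, and on which build, is not stated in the sources used here. The deposited values are log2 intensities with 2 decimals, identical in both deposited tables. Beside them the authors deposited a p-value and a signed fold per cluster (a score, negative where lower in HFD), with Student's t-test as their stated method, per the series design text.

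The brightest of a gene's clusters stood for it, leaving 21759 of 25254 clusters. HFD minus NCD was fitted with limma 3.58.1 in R 4.3.3 (lmFit, eBayes). P-values are two-sided, adjusted by Benjamini-Hochberg across every gene, with a threshold of 0.05. Arrays have no count depth: precision is limited by their number, with a median SE of 0.127 for a difference. No pair of arrays was a duplicate (correlations across clusters from 0.976 to 0.991). The steps were tested on simulated data. The genes and lists were chosen with earlier results of these data known. Named pathway genes were those past the threshold (at most 4) and the 2 of smallest p of each list, and for Lctl and Klb the 3 most alike genes; 1 gene so named is not reported here. Alternatives left out arrays, or changed the variance model, weights, scaling, filter, row choice or test, or added a replicate block.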

Additional observations from a re-analysis of the deposited data

Results flagged for a closer look

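Among 36 groups of 4 arrays (the 8 genes and the named pathway genes in each diet), 2 held an array far from the other 3, where chance gives about 5% of groups. Grb2 on HFD 4 was 6.71, below a group that reached 6.91, with a gap of 0.85 of the group's range. Spred3 on HFD 1 was 6.22, above a group that began at 5.72, with a gap of 0.84 of the range. None of the 8 genes of the Klotho and FGF receptor set had such an array in either diet.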

How the results depend on the processing

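The number of genes called was 31 (2 higher and 29 lower in HFD) and ranged from 21 to 38 when 1 array was left out. It was 3 without NCD 2 and NCD 3, 70 with a variance trend and robust prior, and 55 with dim genes removed. It was 0 in the Student's t-test run here, where 1514 had an unadjusted p under 0.05. After cyclic loess the split was 8 higher and 29 lower. The count among the 8 genes was 1 in 16 of 18 alternatives, and 0 without NCD 2 and NCD 3 (Lctl at -0.84) and in the t-test (Lctl at -1.185). Among pathway genes it was 1, and became 0 in those same alternatives, with Fgf14 at -0.81 and -0.955. It became 2 with the variance trend and with dim genes removed, where Mlxipl passed (-0.58, limma adjusted p = 0.0304 and 0.0416). The sign of genes that never passed turned without NCD 2 and NCD 3: Fgf21 -0.07, Fgfr2 0.05, Fgfr4 0.11 and Kl -0.02. Fgf21 ranged from -0.044 to 0.14 when 1 array was left out, at -0.0067 without NCD 3. The cause of these changes was not tested, beyond fewer arrays or genes in some. With the replicate number as a block 36 genes passed, Lctl among them at -1.185 (limma adjusted p = 0.00222). The block changed no call among the 8 genes or the named pathway genes. Same-numbered arrays did not deviate together (correlations from -0.165 to 0.0025 over 4 pairs). Of the HFD arrays, 0 of 4 correlated best with the NCD array of their own number. So few pairs cannot decide whether the number marks a pairing, and it was not used as one in the main fit. Signal near background limits Kl, Fgf21, Fgfr2, Fgfr3, Fgfr4 and, in HFD, Klb and Fgf14. Among the other pathway genes named, it limits Fgf7, Fgfbp3, Spred3, Dusp6, Etv4, Etv5 and the Sprouty genes.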

Other observations

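Markers of cells other than adipocytes formed 7 lists with 66 measured genes, of which 0 passed the limma threshold and 4 had an unadjusted p under 0.05. Among all genes the shares were 0.142% and 7.24%, so nothing is read from these counts. Fibroblast and progenitor markers had higher means in HFD for all but 1 of 10 genes, with a median difference of 0.115, and endothelial markers for all but 2 of 9, with a median of 0.12. Macrophage markers had higher means for all but 3 of 10, with a median of 0.165, and ranged from -0.105 (Fcgr1) to 0.38 (Emr1). Skeletal muscle markers had lower means in HFD for 2 of 16 genes, lymphocyte markers for 4 of 8 and nerve markers for 3 of 7. Red blood cell markers had lower means for 5 of 6, with a median of -0.12. Adipocyte markers had lower means for 11 of 14, with a median of -0.07, where 53.2% of all genes had lower means. Of these 14, 1 passed the threshold, against 0.142% of all genes: Elovl3, a fatty acid elongase, averaged 5.82 in HFD and 7.20 in NCD (limma adjusted p = 0.00673). Elovl3 exceeded the olfactory receptor level on 0 of 4 HFD arrays. With those arrays set to that level it was 1.59-fold lower in HFD by the group means.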
